A study of Mus musculus with 77 samples.

Results

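The genes described here are 9 genes of the smooth muscle and myofibroblast contractile programme: Acta2, Actg2, Myh11, Tagln, Cnn1, Lmod1, Des, Myocd and Hhip. They were taken by symbol from the 24940 symbols listed in each of 3 tables of whole-lung RNA levels, and all 9 were found in each table. The study asked how genetic background and TREM2, a receptor of macrophages and related myeloid cells, shape oxygen injury of the newborn lung. It measured polyadenylated RNA in 28 lung libraries from mice at postnatal day 14, which had breathed 75% oxygen (hyperoxia) starting within 24 h of birth, or room air. Lungs were perfused to clear blood and the lobes were cut from the trachea and frozen whole, per the labels. Trem2 knockout pups of a Jackson Laboratory line (KO) gave 4 hyperoxia and 4 room-air libraries. DBA/2J pups (DBA), also from Jackson Laboratory, gave 4 hyperoxia and 4 room-air libraries. C57BL/6J pups (B6) gave 3 hyperoxia and 4 room-air libraries, and a second set of B6 pups, in a table of its own that was scaled apart, gave 3 hyperoxia and 2 room-air libraries. The labels name no further allele, no cell type to which the Trem2 deletion was limited and no genetic background for the knockout line, and they do not say whether a library came from 1 animal.

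Smooth muscle wraps the airways and the arteries of the lung, and during the weeks after birth a related cell, the alveolar myofibroblast, sits at the tips of the septa that divide the air spaces. Both contract with smooth muscle actin and myosin, and both switch their contractile genes on through serum response factor (SRF) and its partners, of which myocardin, the product of Myocd, is the one most closely tied to smooth muscle. Alveolar myofibroblasts respond to sonic hedgehog made by the epithelium, and Hhip encodes a decoy that binds hedgehog ligands at the cell surface and is itself induced by the pathway. Prolonged high oxygen in newborn rodents is used as a model of bronchopulmonary dysplasia, in which septa fail to form and muscle around vessels and airways can thicken.

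The promoters of the genes on which the results below turn most are shown first, as the 250 bases before the RefSeq start site in assembly GRCm38.p6, read 5′ to 3′ on the strand of the gene. The table of promoters held 5 of the 9 genes (Acta2, Cnn1, Des, Hhip and Lmod1), and Acta2, Cnn1 and Hhip are printed because they behaved differently from each other. Capitals mark matches, on either strand, to a CArG-like element (the SRF site, a core of A and T between CC and GG, here with 1 G or C allowed in the core) and to CATTCC, the TEAD element. The promoter of Acta2 at chr19:34255374-34255623 (minus strand) was 53.6% G or C. The promoter of Cnn1 at chr9:22099003-22099252 (plus strand) was 59.2% G or C. The promoter of Hhip at chr8:80058009-80058258 (minus strand) was 76.0% G or C, against a median of 52.4% over 32851 promoters, and held 28 CG dinucleotides, against 4 in Acta2 and 3 in Cnn1.
Acta2: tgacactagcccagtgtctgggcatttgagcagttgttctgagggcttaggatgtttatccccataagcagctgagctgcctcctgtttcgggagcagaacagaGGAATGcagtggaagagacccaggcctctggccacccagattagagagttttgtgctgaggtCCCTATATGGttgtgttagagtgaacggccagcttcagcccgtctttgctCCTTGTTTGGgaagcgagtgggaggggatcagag
Cnn1: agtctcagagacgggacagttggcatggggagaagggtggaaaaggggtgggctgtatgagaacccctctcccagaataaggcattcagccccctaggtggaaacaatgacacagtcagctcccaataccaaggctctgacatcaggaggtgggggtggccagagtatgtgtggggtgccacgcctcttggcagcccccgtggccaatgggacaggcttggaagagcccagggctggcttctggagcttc
Hhip: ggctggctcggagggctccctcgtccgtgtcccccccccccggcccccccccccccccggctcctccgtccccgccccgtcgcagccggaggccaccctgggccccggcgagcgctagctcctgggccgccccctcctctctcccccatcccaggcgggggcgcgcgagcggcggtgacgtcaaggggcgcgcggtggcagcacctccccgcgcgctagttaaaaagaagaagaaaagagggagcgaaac
The Acta2 window held 2 CArG-like elements, CCCTATATGG from base -84 to -75 and CCTTGTTTGG from base -34 to -25, counted back from the start site. Such an element was present in 7.24% of all promoters of this length and in none of the other 4. The strict CArG box matched 1.47% of promoters and none of the 5, and the looser form was searched after the strict one had found none. CATTCC was seen as its complement GGAATG in Acta2 (-146 to -141) and Lmod1 (-130 to -125), against 12.6% of all promoters, and the GLI element TGGGTGGTC was in none of the 5, against 0.225%. These windows are the C57BL/6J reference sequence and say nothing of DBA alleles or of sites outside them.

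The libraries held an estimated 7.08 to 41.1 M reads, with 7.08 to 8.04 M in the second B6 set. Estimated reads per library ran from 8 to 477 for Myocd and from 30 to 807 for Lmod1, the most thinly covered of the 9 genes, and from 1968 to 15941 for Acta2. Levels are given in TPM (read numbers scaled by transcript length and by library), so they can be set against each other between genes within a table. Trem2 was at 1.96 to 2.67 TPM in KO hyperoxia and 1.05 to 2.75 TPM in KO room-air libraries, against 5.97 to 9.85 TPM in B6 hyperoxia and 2.14 to 3.73 TPM in B6 room-air libraries, so reads of the gene were still present in the libraries labelled knockout. The labels do not say which exons were deleted. Headers carry 5 date codes, called D1 to D5 here, with no word on what was done on those dates, and the sex of each animal. All KO, DBA and second-set libraries were from males. B6 hyperoxia library 1 and B6 room-air libraries 3 and 4 were from females. The B6 hyperoxia libraries were all D1, B6 room air was D1 and D2, KO room air D2 and D3, KO hyperoxia D3, and DBA D4 and D5. Between DBA and B6 no date code was shared, so date and group cannot be told apart there. KO and B6 hyperoxia libraries share none either, and a fit with date as a term separates them only through the room-air libraries of D1, D2 and D3. The same 7 B6 libraries serve as the comparison group for KO and for DBA, with identical values for 9 of 9 genes.

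In B6 room-air lungs the genes of filament proteins were the most abundant and the regulator Myocd the least. Tagln was highest at 280 ± 33.3 TPM (SD, n = 4), then Acta2 at 151 ± 39.3, Des at 53.3 ± 12.1, Myh11 at 43.5 ± 18.7, Hhip at 35.7 ± 3.02, Actg2 at 26.6 ± 14.9, Cnn1 at 9.61 ± 3.79, Lmod1 at 6.55 ± 0.671 and Myocd at 2.6 ± 0.673 TPM. Among neighbours in this order, the spreads of Des and Myh11, Myh11 and Hhip, Hhip and Actg2, Actg2 and Cnn1, and Cnn1 and Lmod1 overlapped. The genes also differed in their scatter between libraries. Actg2 differed 3.48-fold between the highest and lowest B6 room-air library and 3.47-fold between DBA hyperoxia libraries, but only 1.16-fold between the 4 KO room-air libraries. By the largest range within any group Hhip was the steadiest at 1.62-fold, with Tagln close to it at 1.65-fold. Within KO room air Acta2 (1.11-fold) and Des (1.10-fold) varied less than Hhip (1.20-fold), as Actg2 did.

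**Figure D1:**
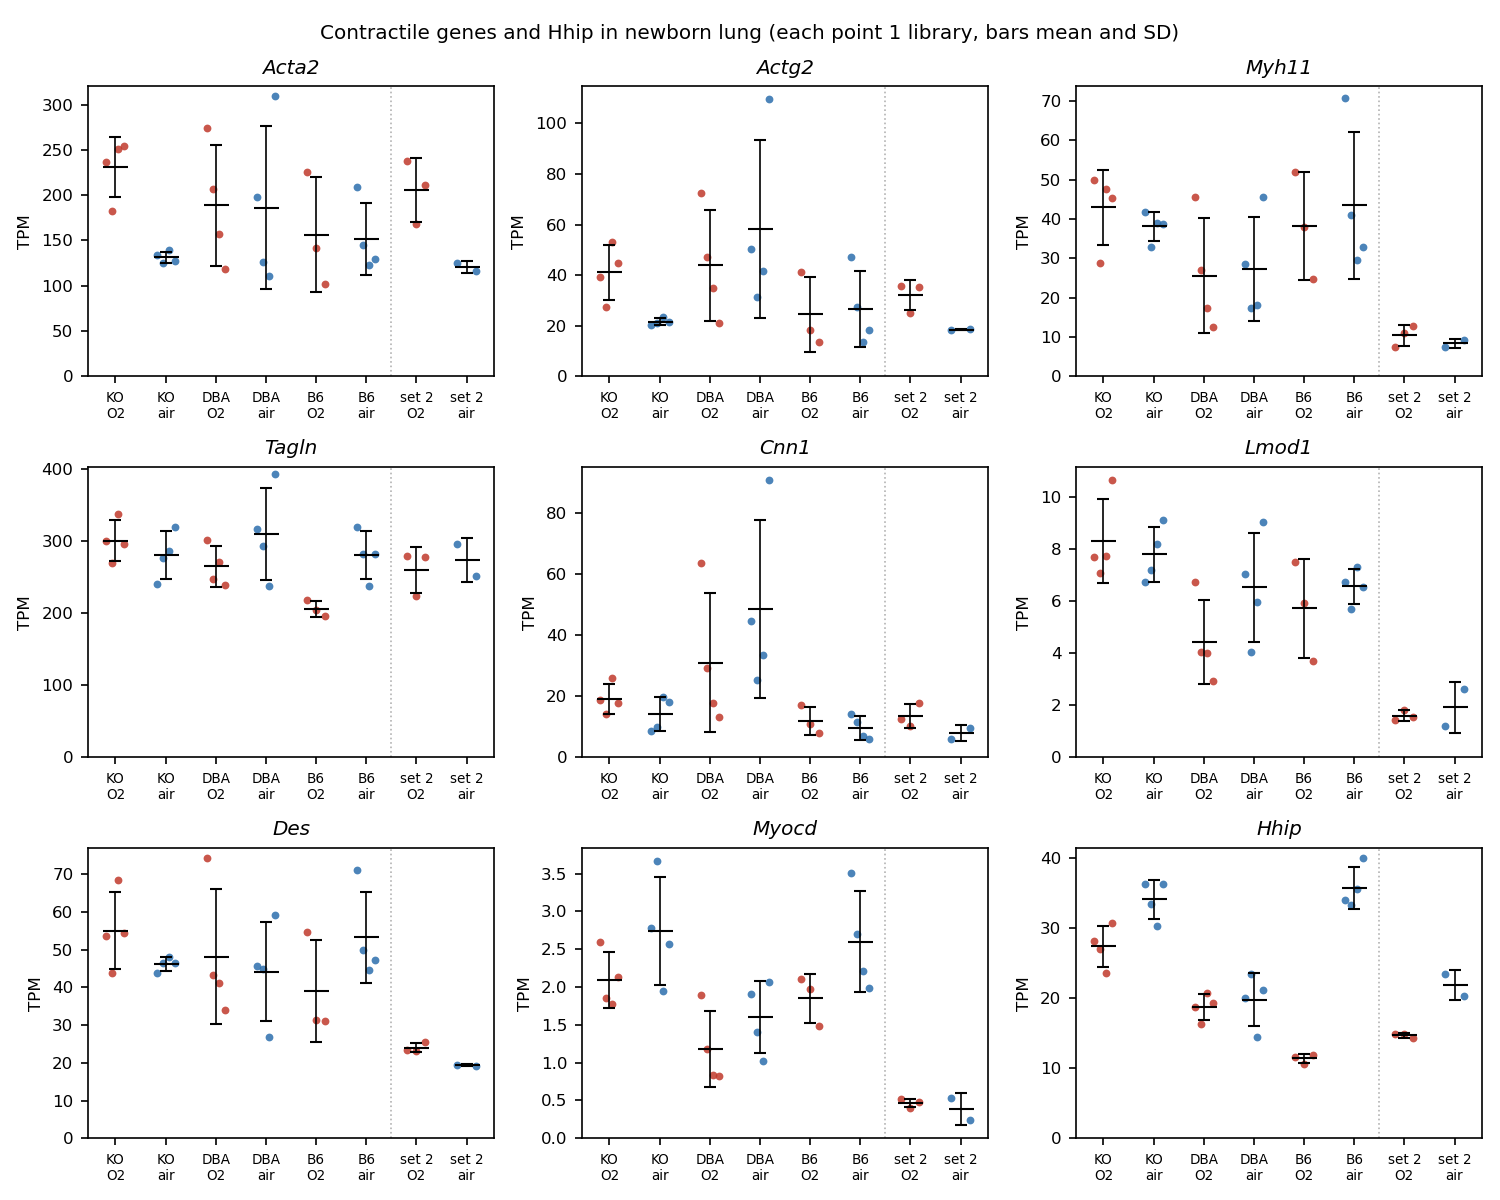
TPM (y axis, from 0, own scale per gene) of the 9 genes in each library, with hyperoxia (O2, red) left of room air (air, blue) for KO, DBA and B6 and, right of the dotted line, the separately scaled second B6 set; horizontal bars are the mean and SD. Acta2 in KO hyperoxia (182 to 255 TPM) lies above all 4 KO room-air libraries, and Hhip in B6 hyperoxia (10.6 to 11.9 TPM) lies far below B6 room air.

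Differences were tested across all expressed genes with limma on log2(TPM + 1), and a gene is called where the Benjamini-Hochberg adjusted p is below 0.05. Oxygen called 2 of the 9 genes in KO lungs, Acta2 up and Hhip down, where 19.7% of 15614 genes tested were called, 10.6% up and 9.11% down. It called none of the 9 in DBA lungs, also none at an unadjusted p below 0.05, where 31.0% of 15623 genes were called, 18.6% up and 12.4% down. In B6 lungs it called Tagln and Hhip, both down, where 42.7% of all genes were called, 16.6% up and 26.0% down. In the second B6 set it called Acta2 and Actg2 up and Hhip down among 8 genes tested, where 4.94% of 14636 genes were called, 3.13% up and 1.81% down. The median change of the 9 genes was 0.14 in KO, -0.21 in DBA and -0.21 in B6 on the log2 scale, against 0.01, 0.05 and -0.07 for all genes. The 2 of 9 genes called in KO are near the background there and the 2 of 9 called in B6 are below it, and nothing particular to the 9 genes is read from these counts. The labels do not say whether libraries share litters, so each p-value measures only the spread between these libraries. In whole lung, fewer cells of a type and less RNA per cell cannot be told apart.

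**Figure D2:**
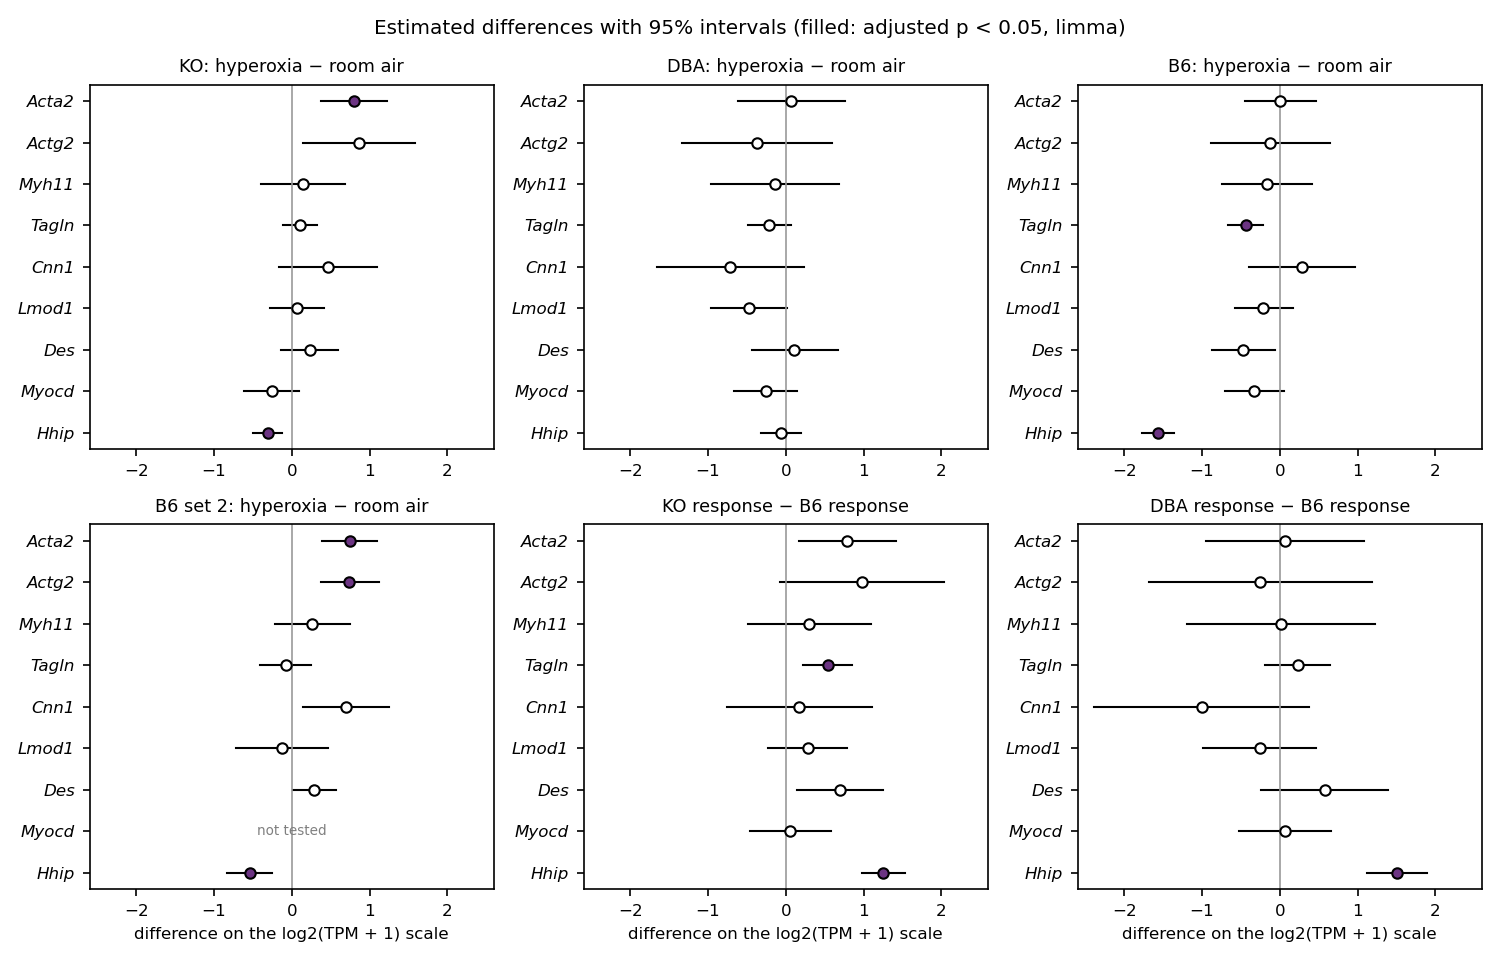
Difference on the log2(TPM + 1) scale (x axis) for each gene (rows), with 95% intervals; filled points have an adjusted p below 0.05 in limma. The upper panels give hyperoxia minus room air in KO, DBA and B6, and the lower panels give it in the second B6 set and then the KO and DBA responses minus the B6 response. Hhip is called in every panel except DBA hyperoxia minus room air, and Acta2 in KO and in the second B6 set.

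Acta2 encodes smooth muscle alpha-actin, the usual marker of smooth muscle and of myofibroblasts, and lies on the minus strand at chr19:34240336-34255373 (mm10). It rose with oxygen in KO lungs. The 4 KO hyperoxia libraries held 236, 182, 250.4 and 255 TPM, against 134, 125, 139 and 128 TPM in KO room air. Every KO hyperoxia value was above every KO room-air value, and the room-air values were close together. The difference was 0.80 ± 0.20 (SE) on the log2 scale, or 1.74 times, with an adjusted p of 0.0116. Hyperoxia libraries of the second B6 set had 238, 168 and 211 TPM, against 126 and 116 TPM in room air. The groups were again apart, by 0.75 ± 0.16 with an adjusted p of 0.0308, a call lost when any library but hyperoxia library 2 was left out (adjusted p = 0.0744 to 0.255). In DBA lungs Acta2 was at 274, 206, 157 and 119 TPM in hyperoxia, against 198, 127, 111 and 309.7 TPM in room air. In the first B6 libraries it was at 226, 142 and 102 TPM in hyperoxia, against 209, 145, 123 and 129 TPM in room air. Both pairs of groups overlapped, with differences of 0.07 ± 0.32 (95% interval -0.62 to 0.76) in DBA and 0.00 ± 0.22 (-0.45 to 0.46) in B6. The highest B6 hyperoxia value came from the female, and among males alone the B6 difference was -0.53 with an adjusted p of 0.0536.

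Acta2 was also higher in KO than in B6 hyperoxia lungs, by 0.62 ± 0.22 with an adjusted p of 0.0330, where 37.2% of all genes were called, 22.0% up and 15.2% down. The call was lost without filtering of low genes (adjusted p = 0.0601), with only the groups compared (adjusted p = 0.0616), with the date code as a term (1.04, adjusted p = 0.159), and without any 1 of B6 hyperoxia libraries 2 and 3 and KO hyperoxia libraries 1, 3 and 4. The response to oxygen was 0.79 ± 0.29 larger in KO than in B6, which missed the threshold with all libraries (adjusted p = 0.0589). Among males alone it was 1.33 with an adjusted p of 0.00287, and without B6 hyperoxia library 1 it was 1.10 with an adjusted p of 0.00562. Markers of other cells moved between KO and B6 hyperoxia lungs as well. Of 8 leukocyte markers 5 were called higher in KO, with sums of 170 to 242 TPM in KO and 116 to 223 TPM in B6. Of 6 mesothelial markers 3 were called higher, with sums of 323 to 438 TPM in KO and 243 to 340 TPM in B6. Of 7 ciliated-cell markers tested 2 were called higher, with sums of 310 to 349 TPM in KO and 191 to 196 TPM in B6, and none of the 3 lists had a marker called lower. Other lists moved both ways. Of 8 endothelial markers 2 were called higher and 3 lower, and of 10 alveolar fibroblast markers 5 were higher and 4 lower. Of 8 epithelial markers 1 was higher and 1 lower. Their part in the differences between KO and B6 was not tested.

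Actg2, the gamma actin of enteric and visceral smooth muscle, lies on the minus strand at chr6:83512909-83536251. In KO and in the second B6 set Actg2 was higher in hyperoxia, as Acta2 was. In KO it was at 39.4, 27.2, 53.2 and 44.8 TPM in hyperoxia, against 20.3, 21.0, 23.5 and 21.4 TPM in KO room air. The groups did not overlap, yet the difference of 0.87 ± 0.34 missed the threshold (adjusted p = 0.0812). It passed within D3 (0.81, adjusted p = 0.0450) and when only the KO groups were fitted (adjusted p = 0.00513), where the spread was estimated from these 8 libraries; the SD in room air was 1.38 TPM in KO and 14.9 TPM in B6. Hyperoxia libraries of the second B6 set had 35.6, 25.1 and 35.3 TPM, against 18.3 and 18.7 TPM in room air, a difference of 0.74 ± 0.17 with an adjusted p of 0.0391, lost as for Acta2 when any library but hyperoxia library 2 was left out. DBA hyperoxia libraries ran from 21.0 to 72.7 TPM, against 31.6 to 109.8 TPM in DBA room air, and B6 hyperoxia from 13.7 to 41.2 TPM, against 13.6 to 47.2 TPM in B6 room air. These 2 pairs of groups overlapped widely. Between DBA and B6 in room air the difference was 1.09 ± 0.46 (adjusted p = 0.0532), which over the alternatives lay between 0.51 among males (adjusted p = 0.405) and 1.41 without B6 room-air library 1 (adjusted p = 0.0189) and passed in 4 of 15. Among B6 males alone Actg2 fell by 1.13 on the log2 scale (adjusted p = 0.00745), and the KO minus B6 response was then 2.00 (adjusted p = 0.00196), against 0.98 with all libraries (adjusted p = 0.161). The coding sequences of the muscle actins are nearly identical, and how shared reads were counted is not stated by the labels, headers or processing notes used, so reads of Acta2 and Actg2, and of cardiac Actc1, may in part be shared.

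Myh11 encodes the heavy chain of smooth muscle myosin, the motor that pulls on these actins, and lies on the minus strand at chr16:14194527-14291408. It was not called in any of the 10 comparisons. KO hyperoxia libraries held 50.0, 28.9, 47.6 and 45.4 TPM, against 41.9, 32.9, 39.1 and 38.6 TPM in KO room air. Thus Myh11 overlapped between the KO groups in which Acta2 did not. DBA hyperoxia libraries had 45.5, 27.2, 17.3 and 12.7 TPM, against 28.5, 17.3, 18 and 45.7 TPM in DBA room air. B6 hyperoxia libraries had 52.0, 38.1 and 24.7 TPM, against 70.7, 41.0, 29.5 and 32.9 TPM in B6 room air. Each group spread more widely than the groups differed, with 95% intervals of -0.39 to 0.68 in KO, -0.96 to 0.68 in DBA and -0.74 to 0.42 in B6. Among B6 males alone Myh11 was lower in hyperoxia by -0.79 (adjusted p = 0.0459).

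Tagln encodes transgelin (SM22-alpha), an actin-binding protein that appears early in smooth muscle, and lies on the minus strand at chr9:45929628-45936058. It fell in B6 hyperoxia and was not called in KO. B6 hyperoxia libraries had 218, 204 and 196 TPM, against 319, 282, 238 and 281 TPM in B6 room air, and the groups did not overlap. The difference was -0.44 ± 0.11 with an adjusted p of 0.00442. KO hyperoxia libraries had 299.6, 269, 337 and 295 TPM, against 240.1, 276, 286 and 319 TPM in KO room air, a difference of 0.10 ± 0.10 (95% interval -0.11 to 0.32). The 2 responses differed by 0.54 ± 0.15 with an adjusted p of 0.0149, in a comparison that called 25.3% of all genes (16.4% up, 8.98% down), and the adjusted p stayed between 0.00627 and 0.0360 in all alternatives run. In hyperoxia all 4 KO libraries were above all 3 B6 libraries, by 0.54 ± 0.11 (adjusted p = 0.00126), a call lost with the date code as a term (0.52, adjusted p = 0.113). DBA hyperoxia libraries had 302, 248, 271 and 238 TPM, against 316, 293, 238 and 393 TPM in DBA room air, a difference of -0.21 ± 0.13 that was not called. Tagln in the second B6 set was at 279, 223 and 277 TPM in hyperoxia, against 295 and 252 TPM in room air, so the fall of the first B6 libraries was not seen there (-0.08 ± 0.15, 95% interval -0.41 to 0.25).

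Cnn1 encodes calponin, which binds actin and restrains myosin in differentiated smooth muscle, and lies on the plus strand at chr9:22099253-22109221. Its largest difference was between strains. DBA room-air libraries had 44.8, 25.3, 33.5 and 90.8 TPM, against 14.1, 11.4, 6.99 and 5.98 TPM in B6 room air, and the lowest DBA value was above the highest B6 value. The difference was 2.13 ± 0.44 with an adjusted p of 0.000819, and leaving out single libraries moved it between 1.78 and 2.38. In that comparison 56.4% of all genes were called, 21.5% up and 34.8% down. In hyperoxia DBA libraries had 63.6, 29.1, 17.9 and 13.2 TPM, against 17.0, 10.8 and 7.82 TPM in B6, which overlapped and gave 1.13 ± 0.48 (adjusted p = 0.0659). KO lungs held 18.8, 14.0, 25.8 and 17.8 TPM in hyperoxia, against 8.76, 9.81, 19.9 and 18.1 TPM in KO room air. The 2 lower KO room-air libraries were D2 and the 2 higher ones D3, and within D3 the KO difference was -0.02, against 0.46 with all libraries (adjusted p = 0.297). In DBA lungs the oxygen difference was -0.72 ± 0.44 (adjusted p = 0.233), but it was 0.35 within D4 and -1.78 (adjusted p = 0.0332) within D5, and without DBA hyperoxia library 1 it was -1.14 with an adjusted p of 0.0474. Cnn1 in the second B6 set was at 12.7, 10.1 and 17.9 TPM in hyperoxia, against 6.15 and 9.70 TPM in room air, which did not overlap and gave 0.70 ± 0.25 (adjusted p = 0.139).

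Lmod1 encodes leiomodin, which nucleates actin filaments in smooth muscle, and lies on the plus strand at chr1:135324813-135368065. KO hyperoxia libraries had 7.69, 7.07, 7.73 and 10.6 TPM, against 7.50, 5.93 and 3.71 TPM in B6 hyperoxia. They overlapped at B6 library 1 and differed by 0.49 ± 0.18 (adjusted p = 0.0378), a call lost without low-gene filtering (adjusted p = 0.0653) with only the groups compared (adjusted p = 0.0875), with quantile normalization (0.35, adjusted p = 0.139), with the date code as a term (0.08, adjusted p = 0.918), and without any 1 of the 5 libraries named for Acta2. Oxygen itself gave 0.07 ± 0.16 in KO, -0.47 ± 0.23 in DBA and -0.21 ± 0.18 in B6, none of them called. Without DBA hyperoxia library 1 the DBA difference was -0.66 (adjusted p = 0.0432).

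Des encodes desmin, the intermediate filament of muscle cells, which is shared by smooth, cardiac and skeletal muscle and by pericytes, and lies on the plus strand at chr1:75360292-75368579. KO hyperoxia libraries had 53.6, 43.7, 68.5 and 54.4 TPM, against 54.6, 31.4 and 31.1 TPM in B6 hyperoxia. B6 library 1, the female, fell among the KO values and the 2 male B6 libraries lay below all of them. The difference was 0.52 ± 0.19 with an adjusted p of 0.0419, lost without low-gene filtering (adjusted p = 0.0720), when only these groups were fitted (adjusted p = 0.0750), with the date code as a term (0.82, adjusted p = 0.208) and without any 1 of the same 5 libraries. With oxygen, Des was lower in B6 by -0.47 ± 0.19 (adjusted p = 0.0593), which became a call among males alone (-0.91, adjusted p = 0.00229) and without B6 hyperoxia library 1 (-0.73, adjusted p = 0.00349). In DBA lungs Des was at 34.0 to 74.2 TPM in hyperoxia, against 27.0 to 59.2 TPM in room air, with no call. Des in the second B6 set was at 23.5, 23.1 and 25.5 TPM in hyperoxia, against 19.5 and 19.3 TPM in room air, apart but not called (0.29 ± 0.12, adjusted p = 0.209).

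Because Des belongs to heart muscle too, and pulmonary veins of mice carry a cardiac muscle sleeve, the summed level of 12 cardiac markers is set beside it. That sum ran from 44.0 to 183 TPM in KO hyperoxia, against 51.6 to 383 TPM in KO room air. It ran from 49.4 to 383 TPM in DBA hyperoxia, against 80.0 to 508 TPM in DBA room air, and from 75.4 to 210 TPM in B6 hyperoxia, against 51.2 to 84.6 TPM in B6 room air. Reads counted to these markers were thus found in every library, unevenly between libraries, including any that Actc1 shares with other actins. In B6, 5 of 12 markers were called higher in hyperoxia and none lower, led by Myh6 at 2.69 ± 1.04 (adjusted p = 0.0485), Csrp3 at 2.43 ± 0.77 (adjusted p = 0.0193) and Tnni3 at 2.19 ± 0.81 (adjusted p = 0.0407), while Des was lower there. In KO, Sln alone was called, lower by -1.54 ± 0.42 (adjusted p = 0.0175), and in DBA none of 12 was called by limma. Of all genes, oxygen called 16.6% up and 26.0% down in B6, 10.6% and 9.11% in KO, and 18.6% and 12.4% in DBA. Sums of 12 skeletal muscle markers stayed between 4.58 and 26.4 TPM, with Myh4 at most at 0.093 TPM in any library. The part of heart muscle in the Des values was not tested.

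**Figure D3:**
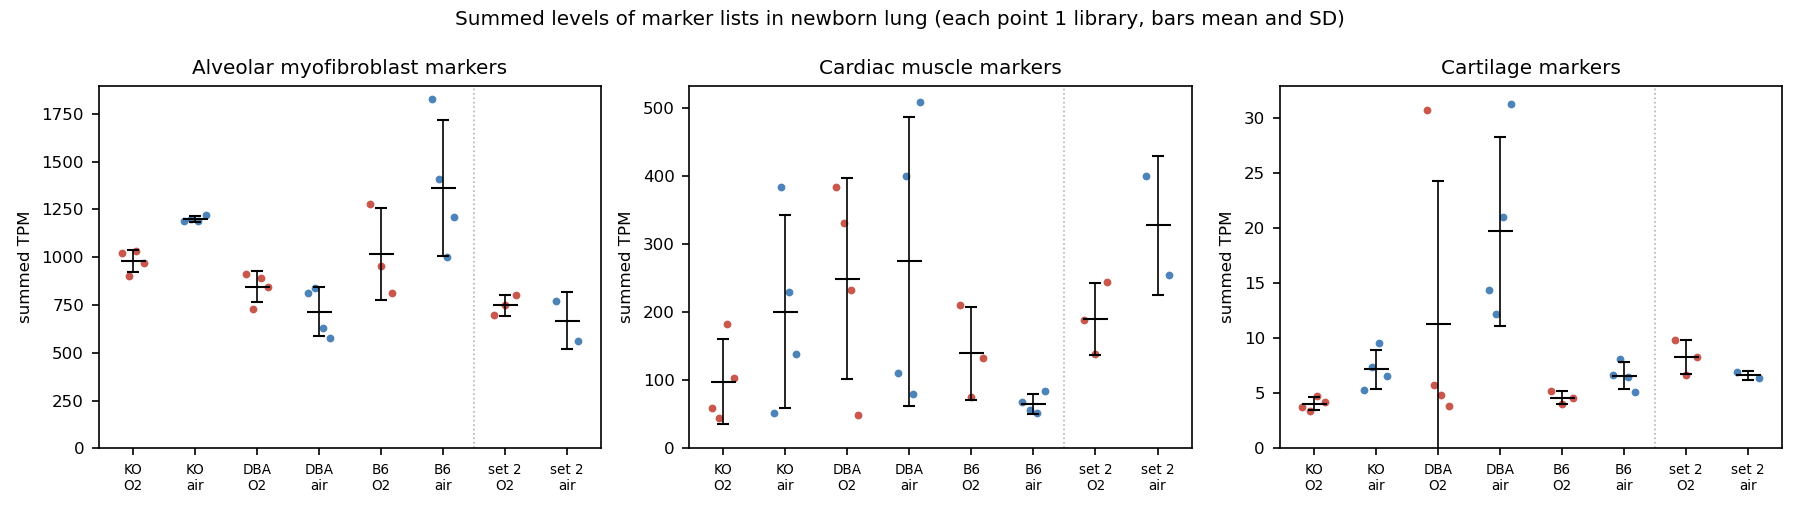
Summed TPM (y axis, from 0) of marker lists for alveolar myofibroblasts, cardiac muscle and cartilage in each library, hyperoxia (red) left of room air (blue), with mean and SD; the lower SD bar of DBA hyperoxia cartilage is cut at 0. DBA room-air library 4 and DBA hyperoxia library 1 are the highest for cartilage, at 31.3 and 30.8 TPM.

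Myocd encodes myocardin, the SRF partner that drives smooth muscle genes, and lies on the minus strand at chr11:65176571-65269989. It was the lowest of the 9 genes in every group. In KO it was at 2.6, 1.85, 1.78 and 2.14 TPM in hyperoxia, against 2.78, 3.66, 1.94 and 2.57 TPM in KO room air. DBA hyperoxia libraries had 1.90, 1.18, 0.832 and 0.823 TPM, against 1.91, 1.40, 1.02 and 2.07 TPM in DBA room air. B6 hyperoxia libraries had 2.10, 1.97 and 1.48 TPM, against 3.51, 2.70, 2.21 and 1.99 TPM in B6 room air. Oxygen differences were -0.26 ± 0.17 in KO, -0.26 ± 0.19 in DBA and -0.33 ± 0.18 in B6, none of them called, so in KO lungs Acta2 was called up and Myocd was not called. With the date code as a term the B6 value was -0.53 with an adjusted p of 0.0353. Myocd was lower in DBA than in B6 room air by -0.47 ± 0.19 (adjusted p = 0.0447), but the call was lost in 8 of 15 alternatives. Among them were quantile normalization (adjusted p = 0.0634) and a pseudocount of 0.1 (adjusted p = 0.0601). Leaving out B6 room-air library 1 or 2, or DBA room-air library 2 or 3, also lost it (adjusted p = 0.0878 to 0.142). In the second B6 set, at 0.237 to 0.533 TPM, Myocd did not pass the filter on low values and was not tested.

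Hhip encodes the hedgehog-interacting protein and lies on the minus strand at chr8:79965851-80058008. Its fall in B6 hyperoxia had the smallest adjusted p of any difference of the 9 genes. B6 hyperoxia libraries had 11.7, 10.6 and 11.9 TPM, against 34.0, 33.3, 35.6 and 40.0 TPM in B6 room air. The 2 groups lay far apart, with a difference of -1.56 ± 0.10, or 0.339 times, and an adjusted p of 2.97e-08. KO hyperoxia libraries had 28.2, 27.0, 23.7 and 30.8 TPM, against 36.4, 33.5, 30.4 and 36.3 TPM in KO room air. This smaller difference of -0.31 ± 0.09 (adjusted p = 0.0237) rested on overlapping groups and was not called within D3 (-0.27, adjusted p = 0.157), without KO room-air library 1 or 4, or without KO hyperoxia library 2 or 3. DBA hyperoxia libraries had 18.7, 16.3, 20.8 and 19.3 TPM, against 20.1, 23.5, 14.5 and 21.1 TPM in DBA room air. No oxygen difference was detected in DBA, at -0.06 ± 0.12 with a 95% interval of -0.32 to 0.20. The second B6 set had 14.9, 14.9 and 14.3 TPM in hyperoxia, against 23.4 and 20.4 TPM in room air, a fall of the same direction and smaller size (-0.54 ± 0.13, adjusted p = 0.0494), lost with the replicate number as a block (-0.52, adjusted p = 0.114) and when any 1 library was left out (adjusted p = 0.0857 to 0.228).

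The test of the difference itself separated the responses of Hhip. The KO response was 1.25 ± 0.13 above the B6 response (adjusted p = 1.62e-05). The DBA response was 1.51 ± 0.18 above it (adjusted p = 9.5e-05), in a comparison that called 29.2% of all genes (20.0% up, 9.2% down). Both used the same B6 libraries, so they are not independent. Left-out libraries moved the KO value between 1.20 and 1.32 and the DBA value between 1.37 and 1.59, and both kept the call with the date code as a term and among males alone. In room air Hhip in KO lungs was near B6, at -0.06 ± 0.09 (95% interval -0.25 to 0.12), while DBA lungs were lower than B6 by -0.84 ± 0.12 (adjusted p = 3.87e-05). Under hyperoxia B6 was the lowest of the 3 at 11.4 ± 0.684 TPM (n = 3), below DBA at 18.8 ± 1.86 and KO at 27.4 ± 2.96 TPM (n = 4 each), and no 2 of these groups overlapped. KO was then 1.19 ± 0.10 above B6 (adjusted p = 6.93e-07) and DBA 0.67 ± 0.13 above B6 (adjusted p = 0.000738), in a comparison that called 46.1% of all genes (23.3% up, 22.8% down). None of the 9 genes was called between KO and B6 in room air, where limma called 0.0769% of all genes (0.0512% up, 0.0256% down) and 1320 genes had an unadjusted p below 0.05.

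Hhip is both a target and an inhibitor of hedgehog signalling, so 14 other pathway genes, 13 of which passed the filter, are set beside it. Shh is the ligand made by alveolar and airway epithelium, and it had the largest called change of the list with oxygen in KO and in B6. KO hyperoxia libraries had 20.9, 15.8, 15.1 and 16.7 TPM, against 15, 10.3, 10.3 and 10.3 TPM in KO room air. DBA hyperoxia libraries had 19.1, 23.9, 26.8 and 22.9 TPM, against 19.4, 18.1, 25.4 and 31.5 TPM in DBA room air. B6 hyperoxia libraries had 5.70, 5.89 and 6.4 TPM, against 17.1, 16.3, 15.4 and 19.4 TPM in B6 room air. Shh was therefore higher in KO hyperoxia, overlapping between the DBA groups and lower in B6 hyperoxia. The differences were 0.54 ± 0.12 in KO (adjusted p = 0.00659) and -1.37 ± 0.13 in B6 (adjusted p = 1.76e-06), and the KO response exceeded the B6 response by 1.91 ± 0.18 (adjusted p = 8.09e-06), the DBA response by 1.36 ± 0.22 (adjusted p = 0.000536).

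Of all genes, oxygen called 10.6% up and 9.11% down in KO, 18.6% and 12.4% in DBA, and 16.6% and 26.0% in B6. Nothing particular to the hedgehog list is read from counts near these shares. Of the 13 tested hedgehog genes, 1 was called up in KO hyperoxia and none down. In DBA hyperoxia 3 were called up, Hhat, Ptch1 and Smo, and Gas1 down. Of 17 alternatives, the call was lost in 9 for Ptch1, 5 for Hhat, 3 for Gas1 and 0 for Smo. In B6 hyperoxia none was called up and 4 down, namely Shh, Cdon (a co-receptor, -0.48 ± 0.15, lost in 5 of 16 alternatives), Smo (the signal transducer, -0.45 ± 0.09) and Ptch1 (the receptor). The KO minus B6 response called 4 up and none down, including Cdon at 0.74 ± 0.20 (adjusted p = 0.0136) and Ptch1 at 0.62 ± 0.22 (adjusted p = 0.0482). That comparison called 16.4% of all genes up and 8.98% down. The Ptch1 call was lost in 14 of 21 alternatives (adjusted p up to 0.111) and the Cdon call in 1, with quantile normalization (adjusted p = 0.0631). Gli1, a transcription factor and the usual readout of the pathway, was called only in the second B6 set, at 0.79 ± 0.16 (adjusted p = 0.0288), a call lost in 5 of 9 alternatives (adjusted p up to 0.227). There it held 9.34, 9.03 and 11.3 TPM in hyperoxia, against 5.66 and 4.89 TPM in room air, while Hhip, another target of the pathway, was lower in the same hyperoxia libraries. Shh in that set was at 13, 12.1 and 13.7 TPM in hyperoxia, against 12.1 and 8.74 TPM in room air, a difference of 0.30 ± 0.16 that was not called (adjusted p = 0.333).

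**Figure D4:**
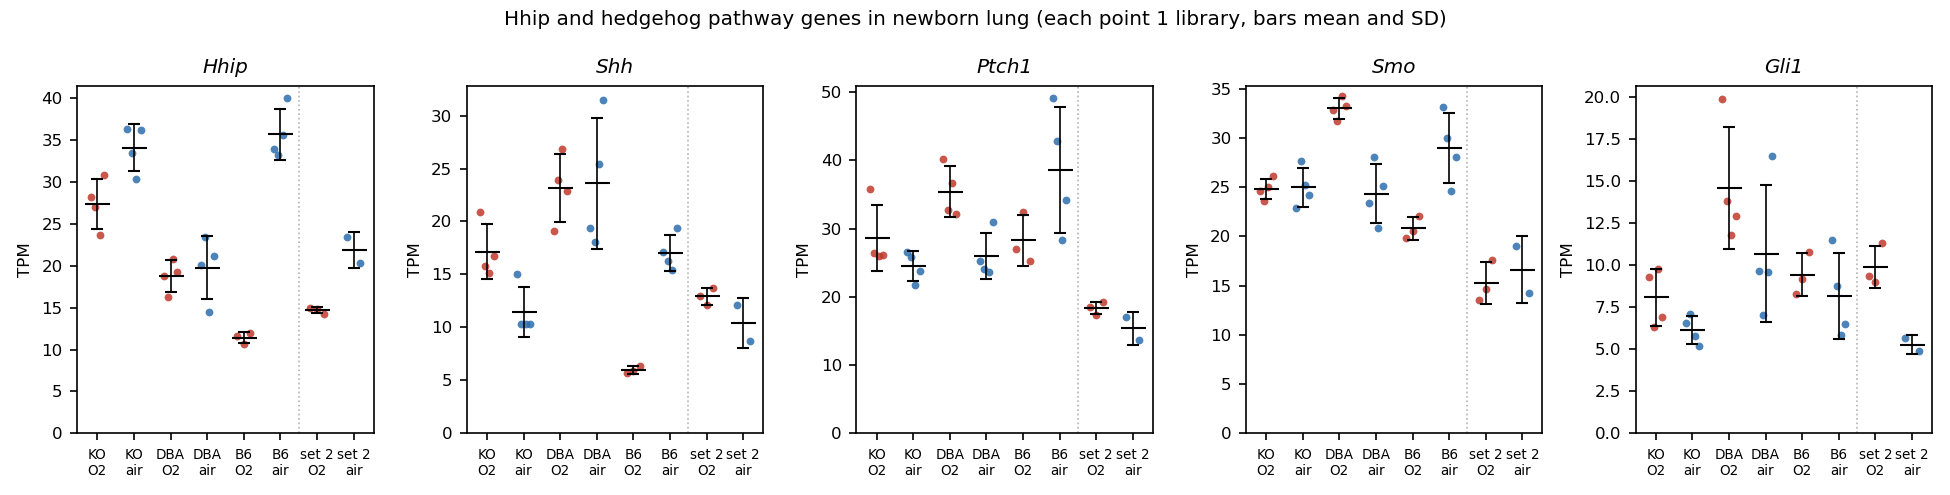
TPM (y axis, from 0, own scale per gene) of Hhip and of the hedgehog genes Shh, Ptch1, Smo and Gli1 in each library, hyperoxia (red) left of room air (blue), with mean and SD; the second B6 set is right of the dotted line. Shh and Hhip are both lowest in the 3 libraries of B6 hyperoxia among the first-set groups, at 5.70 to 6.4 and 10.6 to 11.9 TPM.

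A list of 30 other contractile and focal-adhesion genes, all tested, shows how the wider programme moved. The shares of all genes called up and down with oxygen were 10.6% and 9.11% in KO and 18.6% and 12.4% in DBA. They were 16.6% and 26.0% in B6 and 3.13% and 1.81% in the second B6 set. In KO hyperoxia 3 were called up and 7 down, with a median of -0.06 against 0.01 over all genes. In DBA hyperoxia 6 were up and 2 down. In B6 hyperoxia 1 was up and 17 down, with a median of -0.36 against -0.07 over all genes, led by Mustn1 at -1.15 ± 0.13, Myl9 at -0.98 ± 0.12 and Jph2 at -0.95 ± 0.13. Mustn1, a small protein of muscle and skeleton, was also lower with oxygen in KO (-1.22 ± 0.12) and DBA (-0.62 ± 0.17). Myl9, the regulatory light chain of smooth muscle myosin, averaged 194 ± 36.2 TPM in KO hyperoxia and 192 ± 14.9 TPM in KO room air. It averaged 248 ± 38.0 TPM in DBA hyperoxia and 198 ± 44.4 TPM in DBA room air, and 106 ± 9.37 TPM in B6 hyperoxia and 209 ± 18 TPM in B6 room air (n = 4 each, 3 in B6 hyperoxia). The Myl9 oxygen response exceeded that of B6 by 0.98 ± 0.16 in KO (adjusted p = 0.000554) and by 1.31 ± 0.22 in DBA (adjusted p = 0.000750). In the second B6 set the same 30 genes gave 2 up and 1 down with a median of 0.00, against 0.01 over all genes, and Myl9 averaged 159 ± 21.5 TPM in hyperoxia (n = 3) and 136 ± 9.61 TPM in room air (n = 2), so the lower values of B6 hyperoxia were not repeated there. In the list as a whole, the KO minus B6 response called 8 up and 1 down and the DBA minus B6 response 14 up and 1 down. Shares over all genes were 16.4% up and 8.98% down for KO minus B6, and 20.0% up and 9.2% down for DBA minus B6. Where quantile normalization was used, the share of all calls that were up changed, from 64.6% to 50.9% in the KO minus B6 response and from 68.5% to 53.1% in the DBA minus B6 response.

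Of 18 SRF regulators and growth-factor genes, 16 were tested. Among them 1 was called up and none down in KO hyperoxia, 2 up and 2 down in DBA hyperoxia, and 1 up and 5 down in B6 hyperoxia. Against these stand 10.6% up and 9.11% down of all genes in KO, 18.6% and 12.4% in DBA, and 16.6% and 26.0% in B6. Nothing particular to this list is read from counts near those shares. Srf itself was lower in B6 hyperoxia by -0.70 ± 0.11 (adjusted p = 0.000118), and its KO response exceeded that of B6 by 0.70 ± 0.15 (adjusted p = 0.00311). Tgfbr2, a receptor of TGF-beta, was called up in all 3, at 0.36 ± 0.07 in KO, 0.86 ± 0.11 in DBA and 0.68 ± 0.07 in B6. Pdgfb, a growth factor for mural cells, was lower in B6 by -0.91 ± 0.15.

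Among 13 alveolar myofibroblast genes tested, a list that does not include Hhip in this count, oxygen called none up and 4 down in KO, 2 up and 2 down in DBA, and none up and 7 down in B6. Beside these and the pericyte counts below, all genes gave 10.6% up and 9.11% down in KO and 18.6% and 12.4% in DBA. They gave 16.6% and 26.0% in B6, and 3.13% and 1.81% in the second B6 set. Pdgfra, the receptor that marks these cells, fell by 1.69 in KO (SE 0.15, adjusted p = 2.53e-06), by 0.73 in DBA (SE 0.13), by 0.62 in B6 (SE 0.16) and by 1.34 in the second B6 set (SE 0.22). Fgf18 was lower in B6 by -1.31 ± 0.18, and Stc1 by -0.96 ± 0.14. Acta2 and Pdgfra therefore went opposite ways in KO lungs. In the second B6 set 3 of the 13 were called up and 2 down, with a median of 0.27, against -0.65 in B6, and P2ry14 was 1.06 ± 0.18 there (adjusted p = 0.0142) and -1.01 in B6. With Hhip and the gene below the filter included, the 15 genes summed to 900 to 1030 TPM in KO hyperoxia, against 1190 to 1220 TPM in KO room air. The other groups overlapped, at 731 to 914 TPM in DBA hyperoxia, against 578 to 837 TPM in DBA room air, at 813 to 1280 TPM in B6 hyperoxia, against 1000 to 1830 TPM in B6 room air, and at 695 to 804 TPM in second-set hyperoxia, against 564 to 773 TPM in second-set room air. Of 12 pericyte genes, oxygen called 2 up and 5 down in KO, 2 up and 1 down in DBA, and 2 up and 5 down in B6, with Rgs5 up by 0.87 ± 0.19 in KO, 1.01 ± 0.24 in DBA and 1.32 ± 0.21 in B6.

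Among the libraries of the first 2 tables, DBA and B6 also differed in the balance among the genes, but the second B6 set did not share the B6 values. Dividing each library by its own Myh11 level, a step chosen after the values were seen and given as a description, sets each gene against smooth muscle myosin. Cnn1 over Myh11 was 1.04 to 1.40 in DBA hyperoxia and 1.47 to 1.98 in DBA room air, against 0.284 to 0.327 in B6 hyperoxia and 0.182 to 0.278 in B6 room air. No DBA library overlapped a first-set B6 library in this ratio, whereas the second B6 set had 0.921 to 1.70 in hyperoxia and 0.811 to 1.06 in room air, which overlaps DBA. Actg2 over Myh11 was likewise 1.60 to 2.03 in DBA hyperoxia and 1.77 to 2.40 in DBA room air, against 0.486 to 0.793 in B6 hyperoxia and 0.460 to 0.672 in B6 room air, and in the second B6 set it was 2.28 to 4.78 in hyperoxia and 2.03 to 2.41 in room air, within or above the DBA values. The ratios therefore did not separate the strains across both B6 sets. The scaling of a library cancels in a ratio taken within it. In room air Myh11 averaged 8.38 TPM in the second B6 set, against 43.5 TPM in the first. Cnn1 averaged 7.92 against 9.61 TPM there, and Actg2 18.5 against 26.6 TPM. The cause was not tested. Acta2 over Myh11 was 4.73 to 6.30 in KO hyperoxia, against 3.19 to 3.81 in KO room air, so that within KO the actin was higher relative to the myosin in every hyperoxia library. Reads of DBA mice were set against the C57BL/6J-based mm10 genome, and the effect of sequence differences on single genes was not tested.

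**Figure D5:**
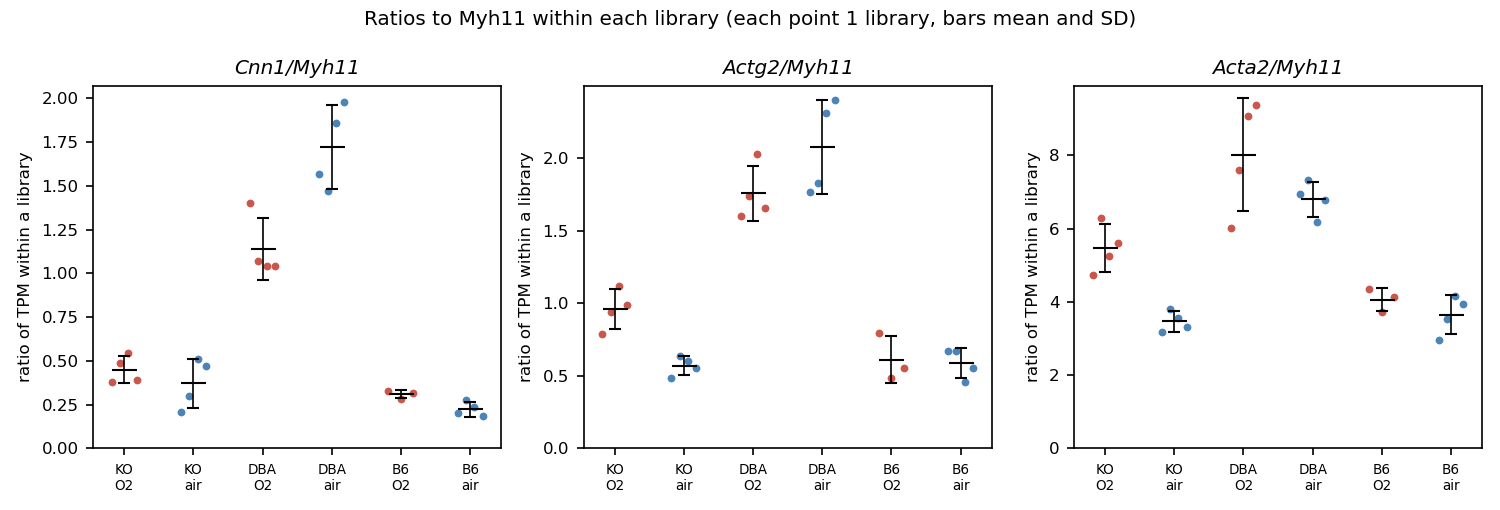
Ratio of TPM to that of Myh11 in the same library (y axis, from 0) for Cnn1, Actg2 and Acta2, hyperoxia (red) left of room air (blue), with mean and SD. The second B6 set is not drawn. Cnn1 and Actg2 ratios of all 8 DBA libraries lie above those of the 8 KO and 7 first-set B6 libraries.

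The DBA libraries also differed from B6 in markers of other cells. Cartilage markers summed to 3.89 to 30.8 TPM in DBA hyperoxia and 12.2 to 31.3 TPM in DBA room air, against 4.03 to 5.22 TPM in B6 hyperoxia and 5.09 to 8.09 TPM in B6 room air. Most of it was Chad, at 10.4 to 28.6 TPM in DBA room air, while Col2a1, which defines cartilage, reached at most 0.224 TPM in DBA libraries. DBA room-air library 4 and DBA hyperoxia library 1, the 2 highest in that sum, were also the highest of their groups for each of the 9 genes except Hhip. Without both, a step added after the data were seen, Cnn1 was still called higher than B6 in room air (1.78, adjusted p = 0.000475), Myh11 was called lower in DBA in room air (-0.95, adjusted p = 0.0234) and in hyperoxia (-0.97, adjusted p = 0.0330), and Acta2 changed sign in room air to -0.07. Epithelial markers summed to 8700 to 13400 TPM in DBA room air, against 20800 to 31700 TPM in B6 room air, and leukocyte markers to 95.4 to 107 TPM in DBA room air, against 154 to 216 TPM in B6 room air. Their part in the differences was not tested.

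Across the 15 KO and B6 libraries several contractile genes scattered together, while Lmod1, Myocd and Hhip mostly did so less. Deviations of Acta2 from its group mean correlated at 0.95 with those of Actg2, 0.94 with those of Myh11 and 0.91 with those of Des (Pearson, log2 scale). Pairs with Lmod1 or Myocd were mostly lower, such as 0.32 for Tagln and Lmod1, 0.44 for Lmod1 and Actg2 and 0.21 for Tagln and Myocd. Cnn1 and Myocd gave 0.15, and Lmod1 and Myocd 0.13. The highest were 0.63 for Acta2 and Lmod1 and 0.57 for Myh11 and Myocd. These reached the lower pairs of the other genes, such as 0.57 for Acta2 and Tagln and 0.62 for Tagln and Myh11. For Hhip the values ran from -0.52 against Cnn1 to 0.16 against Lmod1, with -0.27 against Actg2 and -0.17 against Acta2. Each point is 1 library, so whatever is shared by the RNA of a library enters every pair, and the values are descriptions without a test. By a fixed rule, the genes closest in level to the mean of Acta2, Tagln, Myh11 and Cnn1, among 11295 genes of at least 5 TPM on average, were Cspg4 at 0.94, Thbs1 at 0.91, Gaa and Actn1 at 0.90 and Tpm2 at 0.89. Without B6 hyperoxia library 3 and KO hyperoxia library 3, the 2 farthest from the median, these were 0.90, 0.84, 0.82, 0.82 and 0.82. For deviations from group means the closest were Col1a2 at 0.97, Bag6, Ltbp2 and Pdcd11 at 0.96 and Lamb2 at 0.95.

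Sequencing of p53-bound chromatin (ChIP-seq) gave 6 peak lists from lung and 4 from bone marrow-derived macrophages (BMDM), 1 list per genotype and exposure. For BMDM the labels give an exposure time in hours, with no animal age and no oxygen percentage. Hyperoxia and room air in the BMDM lists are therefore not the exposure of newborn pups described for the lungs. In 1 KO BMDM ChIP-seq sample the genotype entry reads B6 while the title reads knockout, and the title was followed. None of the 9 genes had a p53 peak within 10 kb of its start site in any of the 10 lists. The share of all genes with such a peak was small too, at 0.225% to 0.405% in the lung lists and 1.45% to 6.31% in the BMDM lists, so a count of 0 of 9 is near the background. Within 50 kb, Cnn1 (23.3 kb), Tagln (25.9 kb) and Actg2 (41.1 kb) had a peak in B6 room-air BMDM, where 23.1% of genes did. Tagln also had one at 22.5 kb in KO room-air BMDM, where 6.60% of genes did. The nearest lung peak to any of the 9 was 128 kb from Cnn1 in B6 hyperoxia.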

How the data were processed

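Whole-lung RNA levels were read from 3 deposited tables (KO with B6, DBA with B6, and the second B6 set). The authors' values are TPM per transcript, per the file headers, and the listed transcripts of a library summed to 529199 to 605692 per library. STAR, HOMER and Bowtie2 with genome mm10 are named in the submitters' processing notes, without versions. Since TPM times transcript length was a whole multiple of 1 constant per library (tolerance 0.15 read, at least 99.91% of low values), reads were estimated from it. Intervals cover the spread between libraries. The authors' p53 peak lists give a score per peak, a tag count normalized by the authors per the file headers; it was used only to keep the upper 50% in an alternative. Transcript length is also given per the file headers.

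TPM were tested with limma 3.58.1 (R 4.3.3, empirical Bayes with trend) as log2(TPM + 1), all groups of a table in 1 fit, on genes that reached 1 TPM in a number of libraries no lower than the size of the smallest group, with Benjamini-Hochberg adjustment over all genes and a threshold of 0.05. Fold changes are on the log2(TPM + 1) scale, which understates those of low genes. Pandas 2.3.3, numpy 2.4.6 and matplotlib 3.10.9 were used, and the fit was tested on simulated data. The members and gene lists were chosen with earlier results of these data known, so their counts are descriptions. All 9 genes are named; from each other list shown, up to 3 called genes of largest change per comparison, the defining muscle genes, and the 5 genes most like the contractile mean. Genes outside that rule (Smo, Ptch1, Gli1, Chad, Col2a1, and values given for a listed gene in a further comparison) were chosen after their values were seen. Of the columns, 0 could not be matched to a sample. Alternatives were quantile normalization, a pseudocount of 0.1, no filter, only the groups compared, date code or sex as a term, single date codes, males only, and each library left out. Macrophage RNA was not used here.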

Additional observations from a re-analysis of the deposited data

Results flagged for a closer look

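The response of Tagln to oxygen differed between KO and B6 lungs by 0.54 on the log2 scale (KO minus B6, limma interaction term, adjusted p = 0.0149). It was flagged because the difference of the responses itself passed the test.

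The response of Hhip differed between KO and B6 lungs by 1.25 (adjusted p = 1.62e-05) and between DBA and B6 lungs by 1.51 (adjusted p = 9.5e-05), again by the test of the difference. All 3 values rest on the same 7 B6 libraries, whose 3 hyperoxia libraries share 1 date code. The second B6 set enters none of them. Over 45 combinations of 1 of the 9 genes with a group of 4 libraries, no library lay far enough from the others of its group to be flagged.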

How the results depend on the processing

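Hhip and Tagln in B6, Acta2 in KO, Cnn1 and Hhip between DBA and B6 in room air, Hhip between DBA or KO and B6 in hyperoxia, and the 3 differences of responses kept direction and call in all alternatives run. None of these alternatives took the second B6 set, scaled apart, as the B6 group. With oxygen Tagln gave -0.08 ± 0.15 there and Hhip -0.54 ± 0.13, against -0.44 ± 0.11 and -1.56 ± 0.10 in the first B6 libraries. All results that turned sign were genes not called. Depth limits Myocd and Lmod1 most.

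Counts of the 9 genes called became 4 with a date term and 5 among males in B6, 1 with a date term in KO, 2 without a filter, 2 with only the groups compared and 1 with a date term for KO minus B6 in hyperoxia, and 5 among males for the KO minus B6 response. They became 2 within D5 for DBA, 2 with quantile normalization, 2 with only the groups compared and 3 without the 2 DBA libraries highest in cartilage markers for DBA minus B6 in hyperoxia, and 0 without a filter in the second B6 set. Leaving out single libraries gave 2 to 3 in B6, 1 to 2 in KO, 0 to 0 for KO minus B6 in room air, 2 to 7 in hyperoxia and 2 to 5 for the response, 0 to 2 in DBA, 2 to 4 for DBA minus B6 in room air, 1 to 3 in hyperoxia and 1 to 1 for the response, and 0 to 2 in the second B6 set.

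Counts over all genes became 4351 within D1 in B6, 196 within D4 in DBA, 1442 with a date term for KO minus B6 in hyperoxia, 2936 among males for the DBA minus B6 response, and 272 without a filter in the second B6 set. For KO minus B6 in room air they were 19 with quantile normalization, 1 without a filter, 1 with only the groups compared, 0 with a date term, 23 with sex as a term and 114 among males. Over all alternatives other than left-out libraries, the genes called ran from 4351 to 6686 in B6, 2147 to 3289 in KO and 196 to 5150 in DBA. They ran from 1442 to 5848 for KO minus B6 in hyperoxia and 2890 to 3993 for its response. For DBA minus B6 in hyperoxia they ran from 6110 to 7318. Single libraries left out gave 5632 to 6284 in B6, 2112 to 2978 in KO, 1 to 23, 4972 to 5216 and 3417 to 3903 for KO minus B6 in room air, hyperoxia and response, 3625 to 5410 in DBA, 7970 to 8862, 6223 to 6906 and 3585 to 5243 for DBA minus B6 in room air, hyperoxia and response, and 5 to 745 in the second B6 set. Of the 9 genes, those with a p53 peak within 50 kb, against 0 within 10 kb, were 3 in B6 and 1 in KO room-air macrophages.

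Sign changes with the date term or within D1, D2 or D3 were Acta2 at -0.23 and Cnn1 at -0.15 in B6, Tagln at -0.01, Cnn1 at -0.02 and Lmod1 at -0.07 in KO, Acta2 at 0.04, Tagln at -0.01, Myh11 at 0.25 and Actg2 at 0.37 for KO minus B6 in room air, and Actg2 at 0.32 for the DBA response. Within D4 DBA gave Myh11 0.64, Cnn1 0.35 and Actg2 0.55, and within D5 Acta2 -0.44, Des -0.10 and Hhip 0.18. Among males they were Acta2 at -0.53 and Cnn1 at -0.42 in B6, Tagln at -0.11, Myocd at -0.15 and Hhip at 0.02 for KO minus B6 and Acta2 at -0.02 and Lmod1 at 0.02 for DBA minus B6 in room air, and Actg2 at 0.76 for the DBA response. With quantile normalization they were Acta2 at -0.07 in B6 and -0.06 in DBA, Tagln at -0.01 and Lmod1 at 0.07 for KO and DBA minus B6 in room air, Myocd at -0.03 for KO minus B6 in hyperoxia and -0.10 for its response, and Myh11 at -0.02 and Myocd at -0.11 for the DBA response. With sex as a term Tagln was -0.04 and Myocd -0.03 for KO minus B6, and Lmod1 0.11 for DBA minus B6, in room air. Without the 2 DBA libraries, an alternative chosen after seeing the data, Acta2 was -0.07 in room air and the Myh11 response -0.02. The cause was not tested.

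Single libraries left out turned the sign of Acta2 (-0.30 to 0.27), Myh11 (-0.41 to 0.12), Lmod1 (-0.40 to 0.03) and Actg2 (-0.56 to 0.20) in B6, and of Lmod1 (-0.04 to 0.14) in KO. For KO minus B6 in room air they turned Tagln (-0.07 to 0.07), Myh11 (-0.26 to 0.15), Actg2 (-0.40 to 0.17) and Myocd (-0.06 to 0.17), in hyperoxia Myh11 (-0.08 to 0.44), and in the response Cnn1 (-0.07 to 0.45) and Myocd (-0.05 to 0.18). In DBA they turned Acta2 (-0.14 to 0.35), Myh11 (-0.46 to 0.14), Des (-0.11 to 0.27) and Hhip (-0.19 to 0.03). For DBA minus B6 they turned Acta2 (-0.07 to 0.42) and Lmod1 (-0.20 to 0.13) in room air, and Acta2 (-0.20 to 0.37), Myh11 (-0.30 to 0.30), Actg2 (-0.58 to 0.19) and Myocd (-0.08 to 0.15) in the response. In the second B6 set they turned Tagln (-0.19 to 0.04) and Lmod1 (-0.48 to 0.22).

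In the second B6 set, the replicate block by library number gave 1163 genes called, against 723 without it. Same-numbered deviations correlated at 0.047 and 0.008. Deviations of only 2 room-air libraries mirror each other, so these values cannot show whether same-numbered libraries are linked. The labels give no pairing. No paired analysis was possible because numbers restart at each date code in the other tables. Quantile normalization moved the median of all genes by -0.12 in the DBA minus B6 response.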

Other observations

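Levels of the second B6 set in room air lay below those of the first B6 libraries more for long transcripts. The median log2 ratio was -0.06 over 4718 genes with transcripts below 2000 bases and -0.68 over 1474 genes of 6000 bases or more. Among the 9 genes the log2 ratio was -2.25 for Myh11, -1.41 for Des, -1.38 for Myocd, -1.37 for Lmod1 and -0.68 for Hhip. For Actg2 it was -0.51, for Acta2 -0.32, for Cnn1 -0.25 and for Tagln -0.03. These values did not follow length in order, with Hhip the longest at 9063 bases and Actg2 the shortest at 1304. The tables were scaled separately, so these are levels set side by side with no test. Differences between DBA and the first B6 libraries in room air are listed from the longest transcript to the shortest. They were -0.84 for Hhip, -0.67 for Myh11, -0.47 for Myocd and -0.05 for Lmod1. Next came -0.29 for Des, 0.21 for Acta2, 2.13 for Cnn1, 0.13 for Tagln and 1.09 for Actg2. In hyperoxia Hhip was 0.67 higher in DBA. Any part of transcript length in the DBA differences was not tested.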
